A study of Homo sapiens with 9 samples.

Results

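The genes described here are 47 genes of DNA replication and S phase, read by symbol from a table of 36385 genes measured by RNA sequencing in MG-63 cells. All 47 symbols were found, once each, and all 47 passed the filter on low counts in every comparison. MG-63 is a human line derived from an osteosarcoma and is often used as a model of osteoblasts, the cells that form bone. The cells grew on 3 kinds of surface, with 3 libraries each. The surfaces were the bare titanium alloy Ti6Al4V (bare alloy), Ti6Al4V with TiB2 (TiB2 surface), and Ti6Al4V/HA labelled as boronized (HA surface). Every group, bare alloy included, was cultured for 7 days in medium that drives bone formation. Its additives were dexamethasone at 100 nM, ascorbic acid at 50 µg/mL and beta-glycerophosphate at 10 mM. The TiB2 libraries are labelled as not included in the authors' final analysis. Nothing in the labels says that the replicates of a surface are separate cultures. The p-values therefore measure the spread among libraries alone, and that spread may be technical.

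Before a cell copies its DNA, the origin recognition complex, CDC6 and CDT1 load the ring-shaped MCM helicase onto origins, which is called licensing. At the start of S phase CDC45 and the GINS complex join the ring and open the duplex, primase and the DNA polymerases copy both strands, and PCNA, placed by the RFC clamp loader, holds the polymerases on the template. Ribonucleotide reductase, thymidylate synthase and related enzymes supply the nucleotides. E2F transcription factors, held back by the retinoblastoma protein until cyclin-dependent kinases release them, drive transcription of most of these genes, and cells that differentiate usually leave the cycle and lower them. In bulk RNA, fewer cycling cells and less of each RNA per cycling cell cannot be told apart.

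Libraries held 58464306 to 72542556 counts. No pair of replicates agreed within sampling noise, and the HA libraries differed most among themselves, with a median squared deviation of 60.1 to 97.2 times the Poisson value against 13.4 to 19.1 times on the other surfaces. Bare alloy replicate 1 stood apart with 6.48% of its counts in ribosomal DNA rows, against 1.07% and 0.618% in replicates 2 and 3 and 0.0837% to 0.197% on the coated surfaces. The 7 mesenchymal and osteoblast markers summed to 18339 to 20012 CPM (counts scaled to the library's total) on bare alloy, 9735 to 10177 CPM on TiB2 and 6234 to 10466 CPM on HA. Collagens, VIM and SPARC carried this sum, while 2 of the 7 did not follow it: on bare alloy, TiB2 and HA in that order THY1 ranged over 36.6 to 46.5, 117 to 142 and 64.2 to 86.9 CPM, and RUNX2 over 2.07 to 2.68, 3.38 to 4.16 and 2.15 to 4.12 CPM. Sums of the 4 endothelial markers in the same order were 26.5 to 35.0, 9.35 to 10.2 and 11.5 to 13.1 CPM, of which CDH5 made up 20.5 to 27.9 CPM on bare alloy and 1.26 to 3.71 CPM on the coated surfaces. The labels call the cells epithelial-like, and the 5 epithelial markers summed to 138 to 217 CPM over all libraries. KRT8 (73.5 to 118 CPM) and KRT18 (47.4 to 115 CPM) carried most of this sum. KRT19 lay at 6.72 to 11.6 CPM, EPCAM at 0.479 to 1.15 CPM and CDH1 at 0.0957 to 0.548 CPM. The 6 T cell markers summed to 4.96 to 7.05 CPM in bare alloy replicates 2 and 3 and the TiB2 libraries. In bare alloy replicate 1 and the HA libraries they summed to 0 to 0.182 CPM. CD3D, CD3E, CD3G and LCK carried the higher sums, where TRAC was at 0 throughout and CD2 was at 0 outside TiB2 replicate 3 (0.140 CPM). The 0.182 CPM was TRAC in HA replicate 3. The part of these differences in the results below was not tested, apart from the values given for DUT.

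Replication genes were higher on both coated surfaces than on bare alloy. On the HA surface 36 of the 47 rose and none fell against bare alloy (edgeR quasi-likelihood test, Benjamini-Hochberg adjusted p under 0.05), where 5.02% of the 20117 genes tested were called higher and 4.88% lower. Their median log2 fold change was 0.93, or 1.90-fold, with a range from -0.40 to 1.81, and the median over all genes tested was 0.015. On the TiB2 surface 41 of the 47 rose and none fell, where 12.9% of 20152 genes were called higher and 12.2% lower. The median there was 0.68, or 1.60-fold, with a range from 0.023 to 1.39, beside 0.0018 over all genes. At an unadjusted p under 0.05, 43 members were higher and 0 lower on HA, against 14.1% and 13.1% of all genes, and 45 higher and 0 lower on TiB2, against 18.5% and 18.2%. DESeq2 called 39 higher and 0 lower on HA (9.43% and 7.89% of all genes) and 44 higher and 0 lower on TiB2 (12.6% and 11.4%). With limma on log2(FPKM + 1) the counts were 31 and 0 on HA (4.62% and 4.25%) and 37 and 0 on TiB2 (12.2% and 9.04%). Both comparisons use the same bare alloy libraries, so they are not independent of each other.

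**Figure D1:**
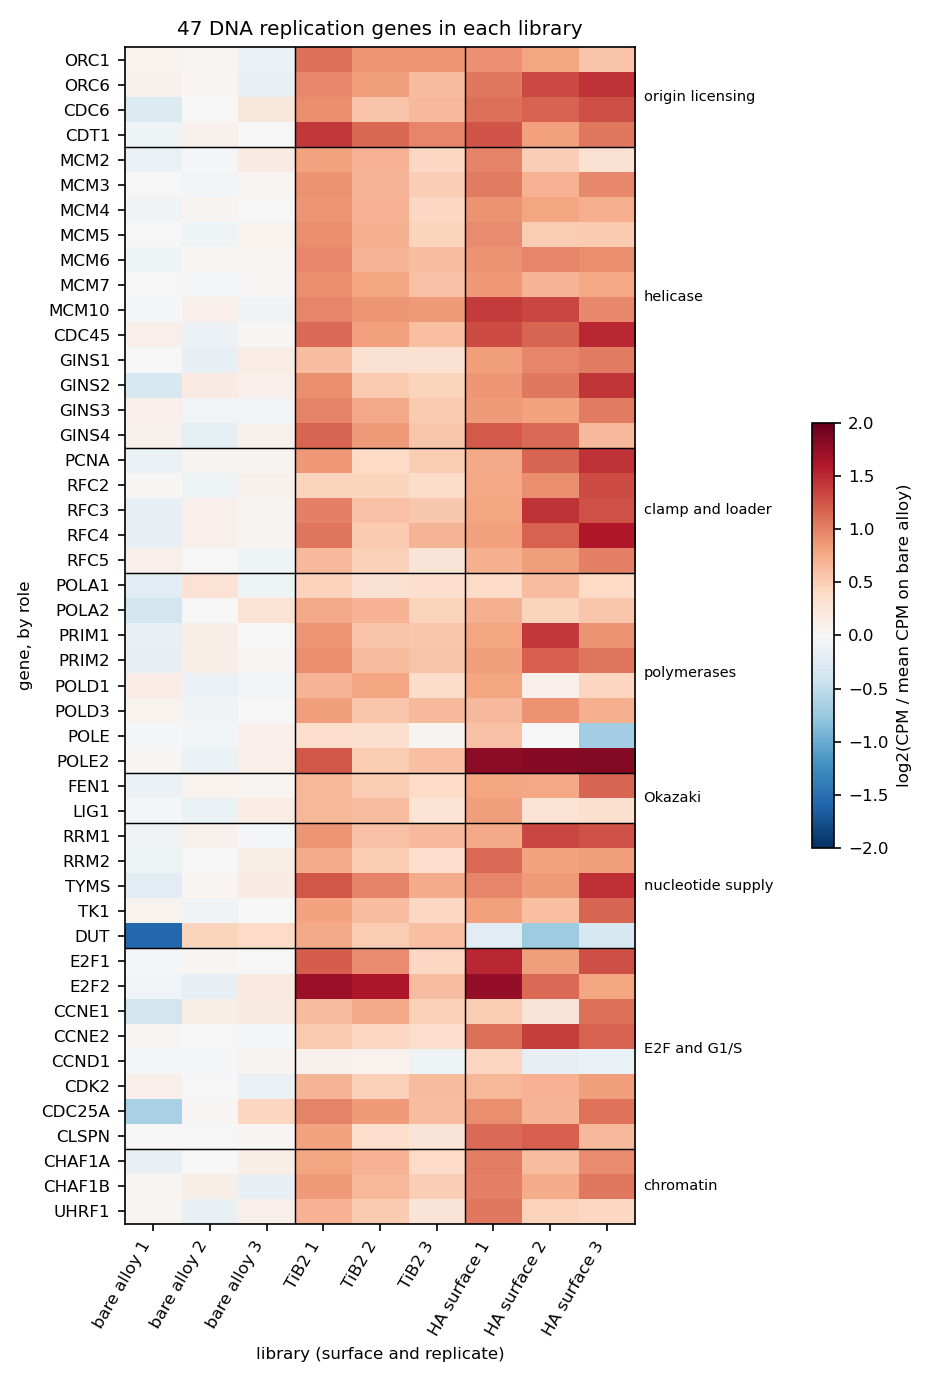
Heat map of the 47 genes (rows, by role) in the 9 libraries (columns), coloured by log2 of the CPM over the mean CPM on bare alloy. Red marks values above the bare alloy mean: the coated libraries are red in nearly every row, with a pale row at CCND1, mixed colours at POLE and blue cells at DUT.

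The rise was seen in each coated library. The median over the 47 genes of log2(CPM over the bare alloy mean) was 0.88, 0.62 and 0.50 in TiB2 replicates 1, 2 and 3 and 0.89, 0.82 and 0.97 in HA replicates 1, 2 and 3, and within 0.046 of 0 in each bare alloy library. No member had its lowest level of the 9 libraries on TiB2. CCND1 had it in HA replicate 2, POLE in HA replicate 3 and the other 45 on bare alloy. All 3 HA libraries lay above all 3 bare alloy libraries for 43 of the 47 genes, against 17.1% of all genes tested, and for none did the HA libraries all lie below (17.4% of all genes). The other 4, POLD1, POLE, DUT and CCND1, overlapped. On TiB2 the same held for 45 of 47, against 20.9% of all genes, with POLE and CCND1 overlapping and none lower (21.2%).

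Calls on the HA surface rested on all 3 bare alloy libraries. Without bare alloy replicate 1, 2 or 3 the count that rose was 11, 11 and 8 (1.77%, 1.31% and 1.33% of all genes tested were then called higher), while the median stayed at 0.90, 0.92 and 0.94. ORC6, CDC6, MCM10, CDC45, RFC3, POLE2 and CCNE2 were called higher whichever library was left out. On TiB2 32 of the 41 calls held in every such fit, and those lost in at least 1 were GINS2, RFC2, RFC5, POLA2, POLE2, CCNE1, CCNE2, CDC25A and UHRF1.

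Set per transcript length, as FPKM, the members spanned a wide range of levels. MCM3, a subunit of the MCM ring, was the highest on each surface, at 95.8 ± 6.40 FPKM on bare alloy, 161 ± 21.3 on TiB2 and 181 ± 21.4 on HA (SD, n = 3). Next on bare alloy came PCNA at 48.9 ± 6.43 FPKM and CCND1 at 42.9 ± 3.41 FPKM, whose spreads overlapped. On HA PCNA stood at 108 ± 19.2 FPKM, above TK1 at 50.1 ± 6.04 and CCND1 at 45.6 ± 12.8, which did not differ beyond their spread. E2F2 was the lowest on bare alloy at 0.568 ± 0.0916 FPKM, with POLE2 at 0.599 ± 0.0554, not separated by their SDs.

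The start regions of these genes were searched for sites of the kind E2F binds. The list was chosen by function and E2F factors drive most such genes. A high share of matches was therefore likely whatever the surfaces did, and it does not bear on the changes between them. RefSeq promoter windows (GRCh38.p14; 250 bases before to 50 after each start) were matched by symbol for 40 of the 47; no window was matched for MCM4, MCM5, GINS4, POLD3, CCNE2, CCND1 and CDK2. The letters searched, on both strands and allowing overlap, were TTTCCCGC, TTTGGCGC, TTTCGCGC and TTTGCCGC. At least 1 of them stood in a window of 23 of the 40 genes (57.5%), against 3.99% of 27305 genes with a window, which were not matched for promoter type. The sequences below are the bases just before the start of 4 members that rose on both surfaces, leaving out bases that GENCODE places in an exon. They are written 5′ to 3′ on the gene's strand with the matched letters in capitals. MCM6 (chr2:135876444-135876603, minus strand) is shown because it carries overlapping matches on both strands at 2 places, PCNA (chr20:5126627-5126782, minus strand) as the sliding clamp, and E2F1 (chr20:33686405-33686545, minus strand) and E2F2 (chr1:23531234-23531393, minus strand) as E2F genes that hold such letters themselves.
MCM6: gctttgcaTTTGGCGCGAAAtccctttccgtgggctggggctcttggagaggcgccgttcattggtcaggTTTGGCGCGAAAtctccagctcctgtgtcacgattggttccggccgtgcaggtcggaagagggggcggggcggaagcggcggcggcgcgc
PCNA: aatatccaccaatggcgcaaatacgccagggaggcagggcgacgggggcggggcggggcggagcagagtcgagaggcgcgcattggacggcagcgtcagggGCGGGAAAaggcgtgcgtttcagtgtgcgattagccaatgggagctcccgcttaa
E2F1: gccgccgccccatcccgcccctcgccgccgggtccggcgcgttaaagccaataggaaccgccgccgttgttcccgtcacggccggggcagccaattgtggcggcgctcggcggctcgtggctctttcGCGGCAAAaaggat
E2F2: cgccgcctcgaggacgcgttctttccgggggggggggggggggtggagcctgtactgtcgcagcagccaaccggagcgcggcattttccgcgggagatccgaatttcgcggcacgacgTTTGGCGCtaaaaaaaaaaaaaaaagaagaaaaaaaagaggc

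Median changes with and without these letters lay close together within wide ranges, and a difference was not tested. The 23 genes with a match had a median log2 fold change of 0.93 on HA (-0.40 to 1.81) and 0.70 on TiB2 (0.25 to 1.39). The 17 without one had 0.94 (0.46 to 1.32) and 0.68 (0.42 to 0.96). The CCAAT letters, searched the same way, stood in 57.5% of the members and 39.7% of all genes, and GGGCGG in 75.0% and 48.3%. TTTGAA, the letters of the element through which many mitotic genes are repressed outside G2 and M phase, stood in 2 of the 40 members (5.00%) and 18.2% of all genes. Of 13 mitotic genes with a window, 8 held TTTGAA and 1 held the E2F letters. A match is a description of letters and not a bound site.

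Origin licensing was higher as a whole. All 4 members rose on HA (median 1.12) and on TiB2 (0.89). ORC6, the smallest subunit of the origin recognition complex (ENSG00000091651, chromosome 16, 46689643 to 46698394), lay at 12.7, 12.3 and 10.8 CPM on bare alloy, 23.2, 21.2 and 18.5 on TiB2 and 24.8, 29.6 and 32.6 on HA. The surfaces did not overlap with each other in any library. It rose 2.42-fold on HA (log2 1.27 ± 0.17 SE; edgeR adjusted p = 0.00359) and 1.76-fold on TiB2 (0.82 ± 0.12; 0.00125). ORC1, its largest subunit (ENSG00000085840, chromosome 1, 52372829 to 52404423), lay at 6.50, 6.38 and 5.71 CPM on bare alloy, 13.3, 11.4 and 11.5 on TiB2 and 11.7, 10.7 and 9.23 on HA, so that coated libraries overlapped one another and stood above bare alloy. Its change on HA was the smallest of the 4 (0.76 ± 0.19; edgeR adjusted p = 0.0410) and its call was lost without HA replicate 2 (0.0887) or without any 1 bare alloy library (0.120 to 0.197); on TiB2 it rose by 0.96 ± 0.13. CDC6 and CDT1, which bring the helicase to the origin, rose by 1.18 and 1.05 on HA and by 0.72 and 1.19 on TiB2.

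The replicative helicase and the factors that switch it on gave 11 of 12 higher on HA (median 0.91) and 11 of 12 on TiB2 (0.73). CDC45, which joins MCM and GINS in the active helicase (ENSG00000093009, chromosome 22, 19479457 to 19520612), lay at 11.9, 10.3 and 11.3 CPM on bare alloy, 24.5, 19.8 and 17.0 on TiB2 and 27.7, 25.0 and 31.5 on HA. Each HA library was above each TiB2 library, and each of those above bare alloy. It rose 2.50-fold on HA (1.32 ± 0.17; edgeR adjusted p = 0.00289) and 1.83-fold on TiB2 (0.87 ± 0.14; 0.00222). MCM2, a subunit of the ring that also binds histones (ENSG00000073111, chromosome 3, 127598410 to 127622436), lay at 67.7, 72.9 and 83.3 CPM on bare alloy, 130, 121 and 98.9 on TiB2 and 148, 104 and 91.8 on HA. Bare alloy lay below every coated library, and the HA range enclosed the TiB2 range, with HA replicate 1 far above the other 2 HA libraries. On HA it did not pass (0.62 ± 0.21; edgeR adjusted p = 0.0965; 0.76 and 0.0445 without HA replicate 3), while on TiB2 it rose (0.64 ± 0.11; 0.00290).

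The 6 subunits of the ring need one another in equal number. Their RNA levels were far from equal, with means over the 9 libraries from 7.93 FPKM for MCM5 to 146 FPKM for MCM3. Their changes lay closer together. On HA MCM2 to MCM7 ranged from 0.62 to 0.93, and on TiB2 from 0.64 to 0.77. MCM10, which helps to open the origin, rose by 1.24 on HA and 0.90 on TiB2. Of the GINS complex, whose 4 subunits form one particle, GINS1 to GINS4 rose by 0.94, 1.13, 0.90 and 1.02 on HA. On TiB2 GINS2, GINS3 and GINS4 rose by 0.65, 0.77 and 0.88, and GINS1 stood at 0.41 (edgeR adjusted p = 0.0721). The GINS2 call on TiB2 was lost when any 1 library other than TiB2 replicate 3 was left out (edgeR adjusted p of 0.0513 to 0.120).

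**Figure D2:**
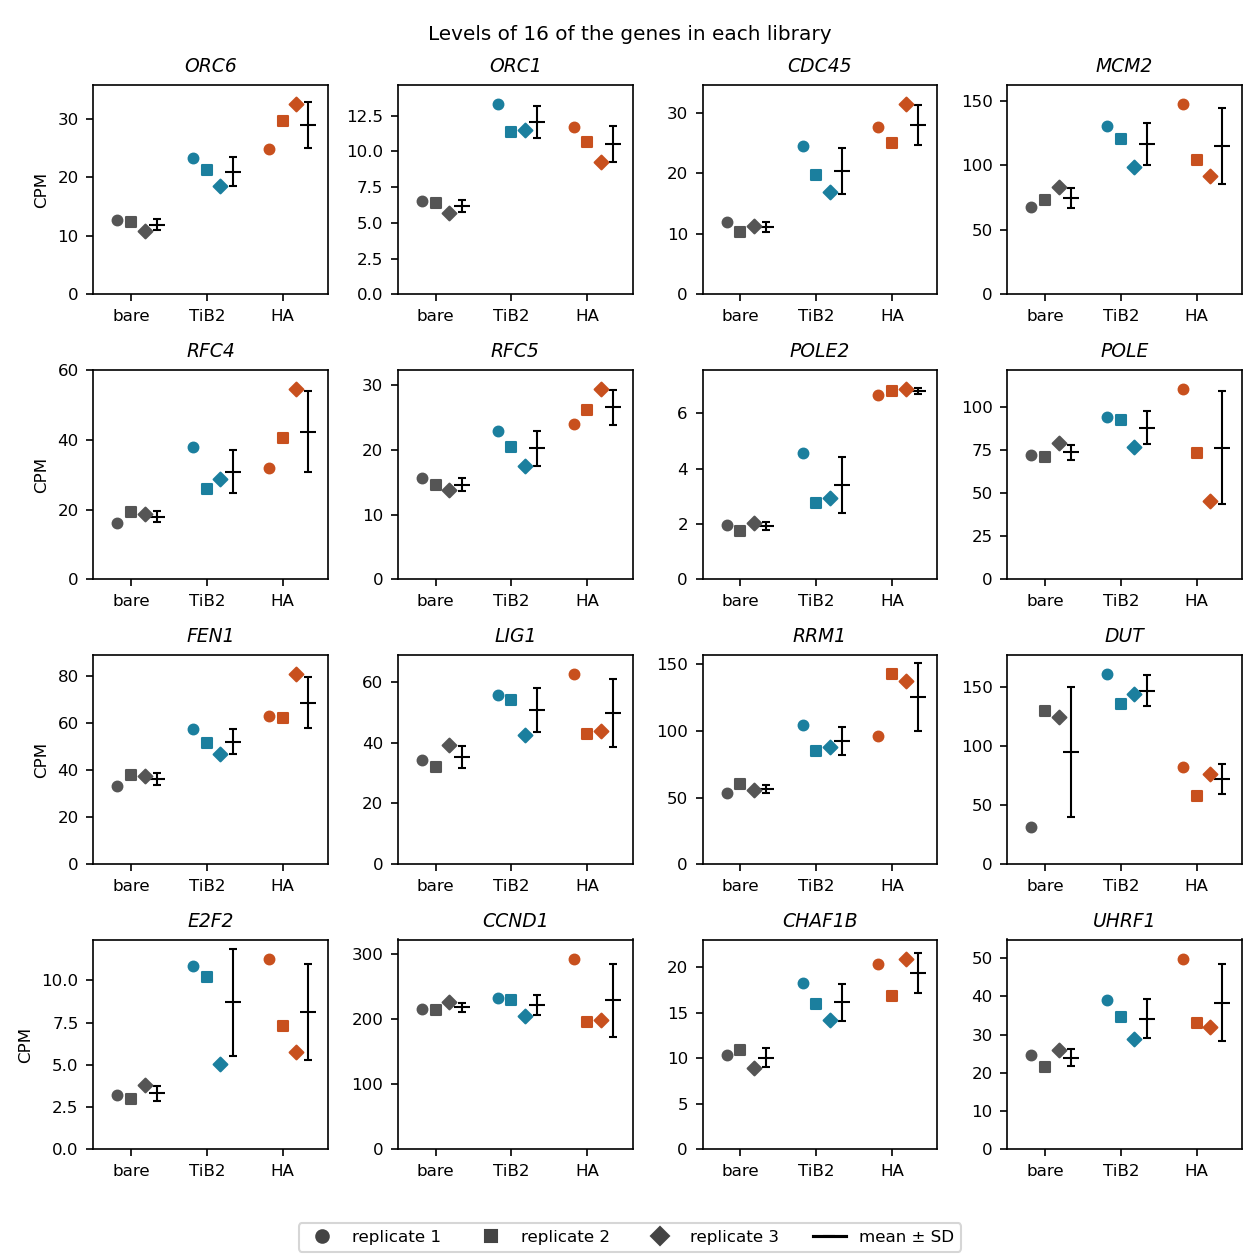
CPM of 16 of the genes in each library, by surface (x axis), with 1 symbol per replicate and the mean ± SD (n = 3) beside them; every vertical axis starts at 0. CDC45, ORC6 and POLE2 step up from bare alloy to TiB2 to HA without overlap, CCND1 lies between 195 and 292 CPM, POLE spreads from 45.4 to 111 CPM on HA, and DUT is lowest in bare alloy replicate 1.

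For the sliding clamp and its loader, all 5 members rose on HA (median 1.14) and on TiB2 (0.60). RFC4, a loader subunit (ENSG00000163918, chromosome 3, 186789880 to 186806482), lay at 16.1, 19.3 and 18.7 CPM on bare alloy, 37.9, 26.0 and 28.7 on TiB2 and 31.8, 40.6 and 54.7 on HA. Coated libraries overlapped one another and all stood above bare alloy. The rise was 2.33-fold on HA (1.22 ± 0.21; edgeR adjusted p = 0.00928, and 0.0501 to 0.0528 without any 1 bare alloy library) and 1.71-fold on TiB2 (0.78 ± 0.14; 0.00386). RFC5, another subunit (ENSG00000111445, chromosome 12, 118013588 to 118032234), lay at 15.6, 14.5 and 13.7 CPM on bare alloy, 22.9, 20.4 and 17.4 on TiB2 and 24.0, 26.2 and 29.4 on HA, with no overlap between surfaces. It changed least of the 5 on HA (0.85 ± 0.16; edgeR adjusted p = 0.0137, and 0.0556 to 0.105 without any 1 bare alloy library); on TiB2 it rose by 0.47 ± 0.12 (0.0202), a call lost in 4 of 6 fits with 1 library left out (0.0595 to 0.0798). PCNA, the clamp itself, rose by 1.14 on HA and 0.60 on TiB2. RFC2 and RFC3 rose by 1.00 and 1.19 on HA and by 0.42 and 0.73 on TiB2.

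Among DNA polymerases and primase, on HA 4 of 8 members rose (PRIM1, PRIM2, POLD3 and POLE2) and on TiB2 6 of 8, with a median of 0.66 on both surfaces. POLE2, the second subunit of polymerase epsilon, the leading-strand enzyme (ENSG00000100479, chromosome 14, 49643555 to 49688422), lay at 1.97, 1.75 and 2.06 CPM on bare alloy, 4.56, 2.75 and 2.93 on TiB2 and 6.68, 6.82 and 6.90 on HA. The HA libraries were nearly level with each other and above every TiB2 library. Its 3.51-fold rise on HA was the largest of the 47 (1.81 ± 0.21; edgeR adjusted p = 0.00179); on TiB2 it rose 1.77-fold (0.82 ± 0.24; 0.0341), a call lost without TiB2 replicate 1 (0.119) or any 1 bare alloy library (0.0687 to 0.107).

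POLE, the catalytic subunit of the same enzyme (ENSG00000177084, chromosome 12, 132623753 to 132687376), lay at 71.8, 70.8 and 78.8 CPM on bare alloy, 94.2, 92.6 and 77.0 on TiB2 and 111, 73.0 and 45.4 on HA. HA replicate 1 was the highest of the 9 libraries for this gene and HA replicate 3 the lowest. No difference passed on HA (0.045 ± 0.29; edgeR adjusted p = 0.941), and its sign turned without HA replicate 1 (-0.32 ± 0.21). On TiB2 it stood at 0.25 ± 0.09 (edgeR adjusted p = 0.0736; 0.34 and 0.0240 without TiB2 replicate 3). The catalytic subunits of the other replicative polymerases, POLA1 and POLD1, and the alpha subunit POLA2 did not pass on HA (0.46, 0.46 and 0.56; edgeR adjusted p = 0.147, 0.188 and 0.120). POLA2 and POLD1 rose on TiB2 (0.64 and 0.62), the POLA2 call being lost in 4 of 6 fits with 1 library left out, where POLA1 stood at 0.37 (0.0666; 0.00946 without bare alloy replicate 2).

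Okazaki fragment maturation is represented by 2 genes. FEN1, the nuclease that trims the flap of each fragment (ENSG00000168496, chromosome 11, 61792911 to 61797238), lay at 33.4, 37.8 and 37.3 CPM on bare alloy, 57.4, 51.4 and 46.9 on TiB2 and 62.8, 62.1 and 80.8 on HA. With no overlap between surfaces, it rose on HA (0.91 ± 0.16; edgeR adjusted p = 0.0102, and 0.0618 to 0.0696 without any 1 bare alloy library) and on TiB2 (0.52 ± 0.09; 0.00364). LIG1, the ligase that seals the fragments (ENSG00000105486, chromosome 19, 48115445 to 48170603), lay at 34.4, 32.0 and 39.1 CPM on bare alloy, 55.7, 53.9 and 42.5 on TiB2 and 62.6, 42.9 and 43.9 on HA. It was above bare alloy in all 6 coated libraries, passed on TiB2 (0.53 ± 0.12; edgeR adjusted p = 0.0107) and did not pass on HA (0.50 ± 0.19; 0.140).

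Of the 5 nucleotide supply genes 4 rose on each coated surface, with medians of 0.93 on HA and 0.62 on TiB2. RRM1, the large subunit of ribonucleotide reductase (ENSG00000167325, chromosome 11, 4094707 to 4138875), lay at 53.8, 60.1 and 55.5 CPM on bare alloy, 105, 84.8 and 88.1 on TiB2 and 95.8, 143 and 137 on HA. HA replicate 1 fell within the TiB2 range and the other HA libraries above it. The rise was 2.20-fold on HA (1.14 ± 0.18; edgeR adjusted p = 0.00680, and 0.0528 without bare alloy replicate 3) and 1.64-fold on TiB2 (0.71 ± 0.09; 0.000564). RRM2, the small subunit, rose by 0.93 on HA and 0.54 on TiB2. TYMS, which makes thymidylate, rose by 1.11 and 1.01, and TK1, which salvages thymidine, by 0.87 and 0.62.

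DUT, the dUTPase that keeps uracil out of DNA (ENSG00000128951, chromosome 15, 48331011 to 48343373), had the only negative log2 fold change of the 47 on HA. It lay at 31.9, 130 and 124 CPM on bare alloy, 161, 135 and 144 on TiB2 and 82.7, 58.0 and 76.4 on HA. All HA libraries were below all TiB2 libraries, and bare alloy replicate 1 was the lowest of the 9 while replicates 2 and 3 stood near TiB2. On HA against bare alloy no difference passed (-0.40 ± 0.43; edgeR adjusted p = 0.590; -0.82 and 0.0877 without bare alloy replicate 1), nor on TiB2 (0.62 ± 0.40; 0.300; 0.20 and 0.162 without that library).

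The same division of libraries marks other genes. A set of 22 genes had at least 20 counts in every library of one side and at most 3 in every library of the other, with bare alloy replicate 1 and the HA libraries on one side. DUT alone of the 47 did not overlap between these sides, at 124 to 161 CPM against 31.9 to 82.7 CPM, and 3.94% of 21008 genes tested did not either. With the side of the library as a term in a fit over all 9, DUT stood at 1.17 ± 0.25 on HA against bare alloy (edgeR adjusted p = 0.0331). In that fit the side is read from bare alloy replicate 1 against replicates 2 and 3 alone. With that term 18 of the 47 genes were called higher on HA and 11 on TiB2, where 1.44% and 2.67% of all genes were. An antisense gene, DUT-AS1, overlaps DUT and also did not overlap in level between the sides. It lay at 0.872 to 1.12 CPM in bare alloy replicate 1 and the HA libraries and at 1.27 to 4.23 CPM in the others. The 4 DUT pseudogene rows held at most 26 counts each in any library. This division was not the only one of its size. By the same rule on counts, 22 genes parted HA replicate 3 alone from all other libraries, and 19 parted bare alloy replicate 1 alone.

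Among E2F factors, cyclins and other G1/S regulators, 5 of 8 rose on HA (median 0.95) and 6 of 8 on TiB2 (0.61). E2F2, one of the activating E2F factors (ENSG00000007968, chromosome 1, 23506438 to 23531233), lay at 3.21, 2.96 and 3.80 CPM on bare alloy, 10.8, 10.2 and 5.07 on TiB2 and 11.3, 7.32 and 5.73 on HA. Replicate 3 was the lowest on both coated surfaces but still above bare alloy. It rose 2.43-fold on HA (1.28 ± 0.29; edgeR adjusted p = 0.0258) and 2.62-fold on TiB2 (1.39 ± 0.27; 0.00545), and the HA call was lost without HA replicate 2 (0.0677) or any 1 bare alloy library (0.0809 to 0.112). E2F1, its close relative, rose by 1.23 on HA, with edgeR adjusted p = 0.0528 without bare alloy replicate 3, and by 0.89 on TiB2.

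CCND1, the cyclin D1 gene that acts before E2F release in G1 (ENSG00000110092, chromosome 11, 69641156 to 69654474), lay at 215, 213 and 226 CPM on bare alloy, 231, 229 and 204 on TiB2 and 292, 195 and 198 on HA. All 3 groups overlapped, and HA replicate 1 stood above the rest. Neither surface passed (HA 0.062 ± 0.20, edgeR adjusted p = 0.874; TiB2 0.023 ± 0.07, 0.854), and the sign on HA turned without HA replicate 1 (-0.15 ± 0.12).

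The E-type cyclins act with CDK2 at the entry into S phase. CCNE2, singled out after its values were seen, lay at 9.25, 9.18 and 9.02 CPM on bare alloy, 13.2, 12.2 and 11.7 on TiB2 and 19.7, 23.8 and 20.6 on HA, with no overlap between surfaces. It rose by 1.22 ± 0.17 on HA (edgeR adjusted p = 0.00363) and 0.43 ± 0.12 on TiB2 (0.0229, and 0.0502 to 0.0731 in the 5 fits without 1 library that lost the call). CCNE1 stood at 0.66 on HA (0.171) and 0.63 on TiB2, where it passed (0.0464) but in no fit with 1 library left out (0.0654 to 0.132). CDK2, the kinase, rose by 0.73 on HA and 0.60 on TiB2. CDC25A, the phosphatase that activates CDK2, stood at 0.90 on HA (edgeR adjusted p = 0.0823) and passed on TiB2 (0.82; 0.0416, and 0.0610 to 0.126 in the 5 fits that lost it). CLSPN, a checkpoint protein of the fork, rose by 1.01 on HA and stood at 0.49 on TiB2 (0.0522).

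Chromatin assembly and maintenance at the fork gave 2 of 3 members higher on HA and 3 of 3 on TiB2. CHAF1B, a subunit of the factor that puts histones on new DNA (ENSG00000159259, chromosome 21, 36385392 to 36419015), lay at 10.4, 10.9 and 8.96 CPM on bare alloy, 18.2, 16.0 and 14.2 on TiB2 and 20.4, 16.9 and 20.9 on HA. CHAF1A, its partner (ENSG00000167670, chromosome 19, 4402640 to 4443397), lay at 12.5, 13.8 and 15.2 CPM on bare alloy, 24.0, 22.4 and 18.1 on TiB2 and 28.1, 21.2 and 26.5 on HA. For both, coated libraries overlapped one another and stood above bare alloy. CHAF1B rose by 0.94 ± 0.18 on HA (edgeR adjusted p = 0.0137) and 0.68 ± 0.13 on TiB2 (0.00563), and CHAF1A by 0.86 ± 0.18 (0.0196) and 0.64 ± 0.13 (0.00641). Both HA calls were lost without any 1 bare alloy library (edgeR adjusted p of 0.0599 to 0.103). UHRF1, which carries DNA methylation to the new strand (ENSG00000276043, chromosome 19, 4903080 to 4962154), lay at 24.6, 21.6 and 25.9 CPM on bare alloy, 39.1, 34.7 and 28.8 on TiB2 and 49.8, 33.1 and 32.1 on HA. Bare alloy was below every coated library, HA replicate 1 was the highest, and the call was made on TiB2 (0.51 ± 0.12; edgeR adjusted p = 0.0149; 0.0611 without bare alloy replicate 2 and 0.0524 without TiB2 replicate 1) but not on HA (0.67 ± 0.21; 0.0789).

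**Figure D3:**
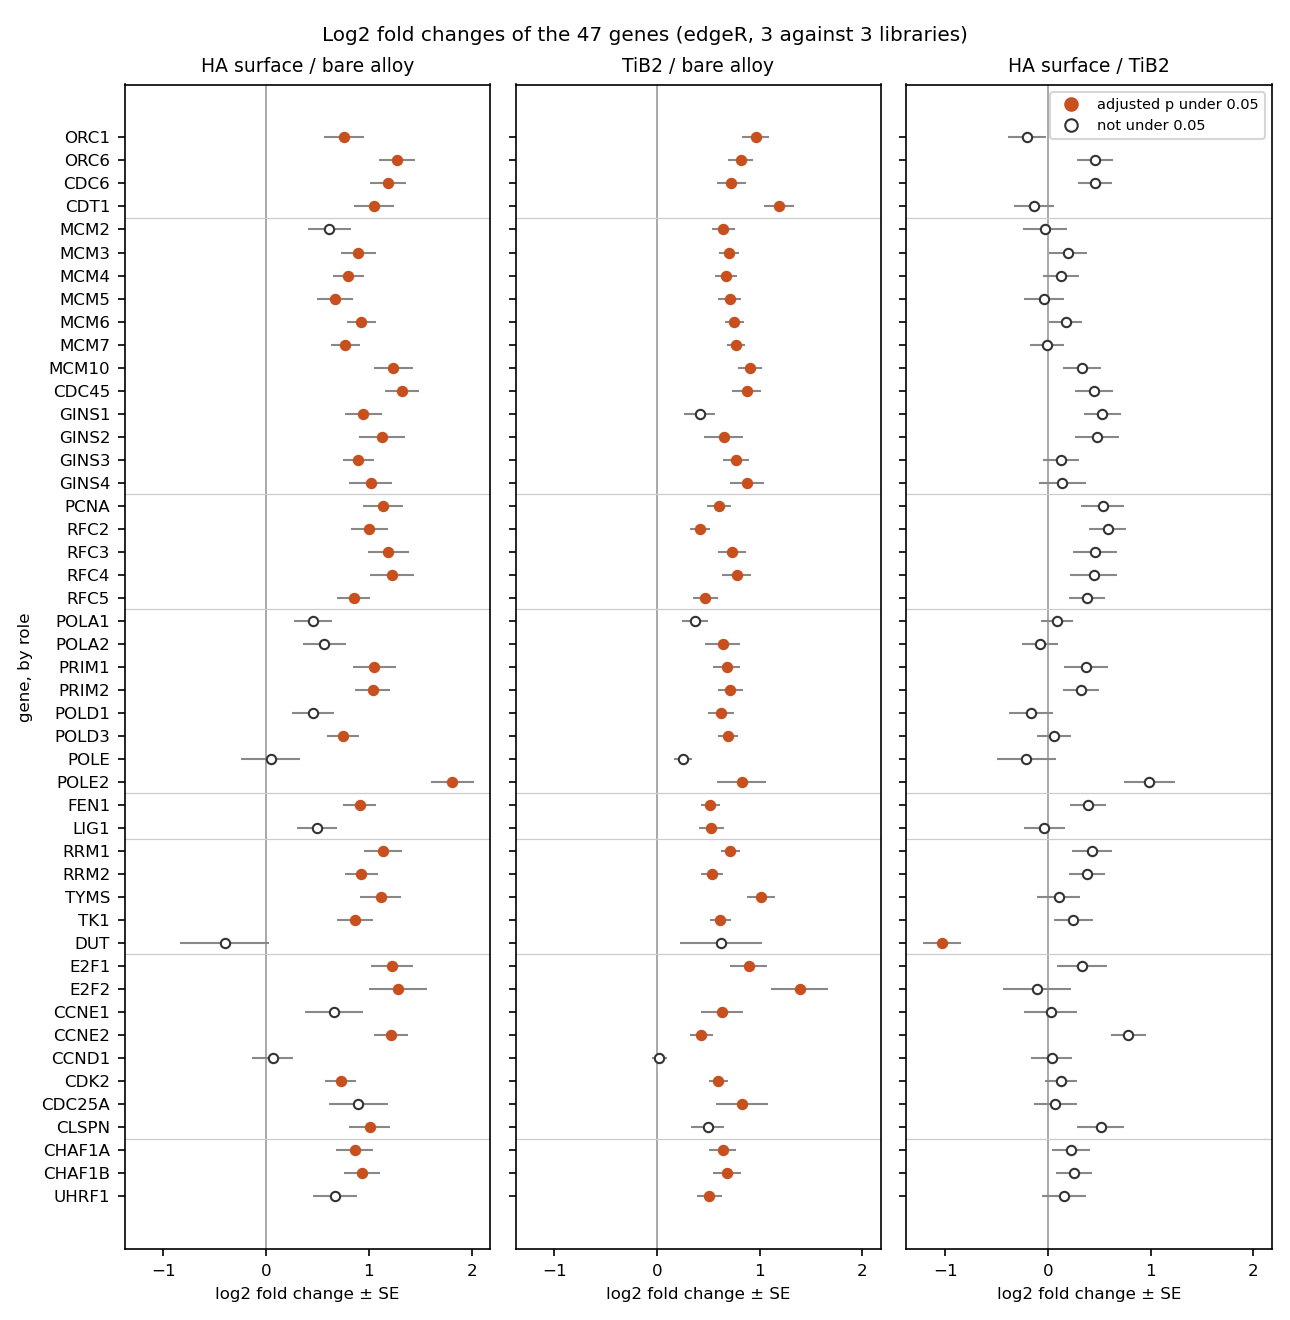
Log2 fold changes ± SE of the 47 genes (rows, by role) in the 3 comparisons of surfaces (panels), 3 against 3 libraries each. Filled points passed the adjusted threshold: 36 on HA and 41 on TiB2 against bare alloy, all to the right of 0, and DUT alone, to the left, between HA and TiB2.

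The direct comparison of the coated surfaces separated few of these genes. Between HA and TiB2 none was called higher and DUT alone lower (edgeR adjusted p under 0.05), where 0.179% of 20086 genes were called higher and 0.453% lower. At an unadjusted p under 0.05, 10 members were higher on HA and 1 lower (6.4% and 5.64% of all genes). DESeq2 called 2 higher, POLE2 and CCNE2, and 1 lower (0.699% and 1.27%), and limma on log2(FPKM + 1) 0 and 1 (0.144% and 0.443%). The median was 0.19, with a range from -1.03 to 0.99, beside 0.019 over all genes, and it was 0.30 without TiB2 replicate 1 and 0.11 without TiB2 replicate 3. DUT fell by 1.03 ± 0.18 on the log2 scale (edgeR adjusted p = 0.0415). Its call was kept without HA replicate 1 and lost in each of the 5 fits that left out another library (0.0682 to 0.242). With the side of the library as a term the sign turned (0.97 ± 0.30; edgeR adjusted p = 0.960).

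The members furthest to the HA side were POLE2 (0.99 ± 0.25; edgeR adjusted p = 0.146; log2 0.86 to 1.24 when a library was dropped) and CCNE2 (0.78 ± 0.17; 0.0937; 0.0386 without HA replicate 1). Without HA replicate 1 RFC2 passed too (edgeR adjusted p = 0.0480), where 2.67% of all genes were called higher. All HA libraries lay above all TiB2 libraries for 10 members (8.54% of all genes tested) and below for 1 (9.51%). By role the median was highest for the clamp and its loader (0.46), with all 5 members positive, and lowest for the polymerases (0.073). Longest transcripts spanned 1359 to 2449 bases in the clamp and loader and 1459 to 8011 in the polymerases. The HA libraries differed along transcript length, as described below, and its part in this ranking was not tested. A p over the threshold does not show that the coated surfaces were alike. On simulated counts with known changes the same test recovered 19% of 2-fold and 76% of 4-fold changes in this comparison (20086 genes).

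HA libraries differed from one another along gene length and base composition. Over the 47 genes the log2 difference between HA replicates 3 and 1 fell with the longest transcript's length (Pearson r = -0.76, Spearman -0.72), and that between replicates 2 and 1 with GC content (-0.75 and -0.77). These are descriptions over 47 genes measured in the same libraries, with no test. Between replicates 3 and 1 of the other surfaces, r with length was -0.042 on TiB2 and -0.062 on bare alloy. The median SD of log2 CPM over 3 libraries was 0.22 on HA, 0.19 on TiB2 and 0.12 on bare alloy.

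POLE has the longest transcript of the 47 at 8011 bases and POLD1 the highest GC content at 65.0%. With an offset for each library's trend on GC content and length, 43 of the 47 were called higher on HA (10.1% of all genes) and 44 on TiB2 (15.6%). Under that offset MCM2, POLA1, POLA2, POLD1, LIG1, UHRF1 and CDC25A passed on HA as well. POLE stood at 0.32 (edgeR adjusted p = 0.190), CCND1 at 0.20 (0.344), CCNE1 at 0.66 (0.113) and DUT at -0.51 (0.492). Other HA changes shrank, among them RFC3 from 1.19 to 0.92, PRIM1 from 1.05 to 0.79, CCNE2 from 1.22 to 1.02 and POLE2 from 1.81 to 1.67. The median stayed at 0.93. Without the offset, the HA change against bare alloy fell with length (Pearson r = -0.38, Spearman -0.33) and GC content (-0.23 and -0.33) over the 47 genes, with no test.

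**Figure D4:**
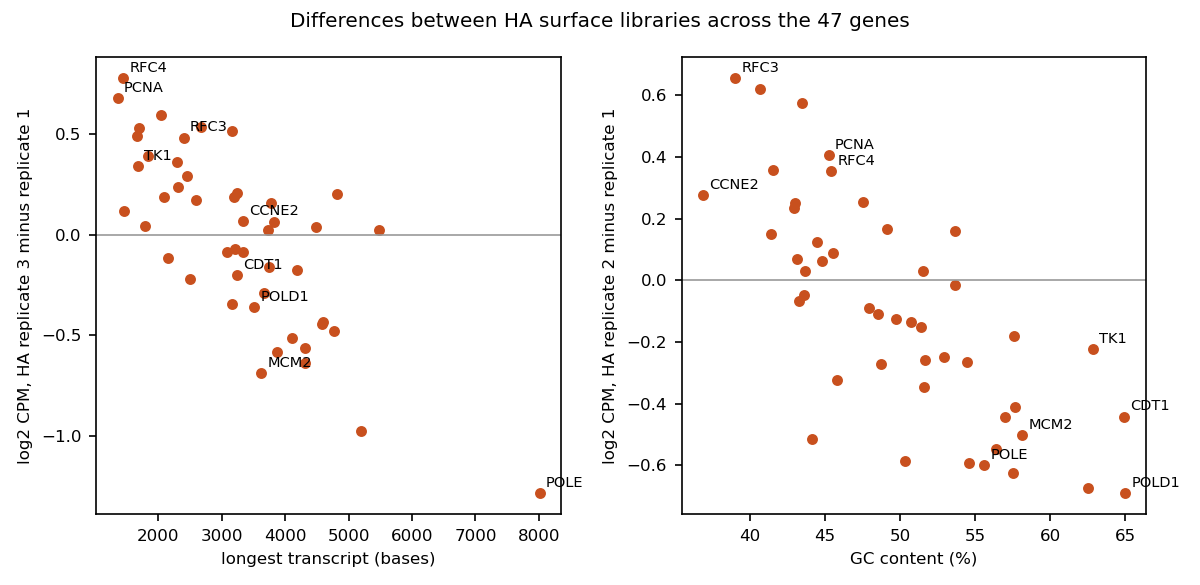
Log2 CPM of HA replicate 3 minus replicate 1 against the longest transcript's length (left) and of HA replicate 2 minus replicate 1 against GC content (right), with 1 point per gene for the 47 genes. Points fall from left to right in both panels, with POLE at the far lower right on the left and POLD1 and CDT1 at the lower right on the right.

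Other genes of the pathway and of mitosis were taken from lists of 86 genes chosen with earlier results of these data known. Of the 70 that are not mitotic, 18 rose on HA and 28 of the 67 tested rose on TiB2. Of all genes tested, 5.02% rose and 4.88% fell on HA, and 12.9% and 12.2% on TiB2, beside each list below. As with the 47, the HA count rested on the bare alloy libraries. It was 6, 3 and 4 without replicate 1, 2 or 3 (1.77%, 1.31% and 1.33% of all genes). It was 11 without HA replicate 2 and 28 without HA replicate 1, where 561 of 20926 and 2282 of 21075 genes were called higher. Calls over all genes, 1009 of 20117 with every library, moved the same way. With the side of the library as a term the count was 5 on HA and 5 on TiB2 (1.44% and 2.67% of all genes). Of 14 further genes of origin licensing and firing, ORC2 to ORC5 among them, 5 rose on HA and 10 on TiB2, and none fell. Their changes ranged from 0.10 to 1.38 on HA and from 0.098 to 1.16 on TiB2. CDC7 and DBF4, the kinase that fires origins and its activator, rose by 1.38 and 1.25 on HA and 1.16 and 0.78 on TiB2. GMNN, geminin, which blocks relicensing, rose by 1.17 and 0.56. On HA the GMNN call was lost without HA replicate 2 or any 1 bare alloy library (edgeR adjusted p of 0.0525 to 0.0752) and the DBF4 call without bare alloy replicate 3 (0.0572). Of 17 further fork components 5 rose on HA and 7 on TiB2, and none fell. DNA2, a nuclease of Okazaki fragments, rose by 1.49 and 1.18, RNASEH2A by 1.15 and 0.66 and POLE3, a small polymerase epsilon subunit, by 0.88 and 0.64. Without any 1 bare alloy library the HA calls of RNASEH2A (edgeR adjusted p of 0.0556 to 0.0861) and POLE3 (0.0669 to 0.0726) were lost.

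Further nucleotide supply genes split. Of 10, 2 rose and 1 fell on HA, and 4 rose and 2 fell on TiB2. DTYMK, the thymidylate kinase, rose by 0.99 on HA and 0.45 on TiB2, and its HA call was lost without HA replicate 2 or any 1 bare alloy library (edgeR adjusted p of 0.0608 to 0.159). TK2, the mitochondrial thymidine kinase, lay at 32.7, 32.9 and 33.9 CPM on bare alloy, 23.5, 25.2 and 24.4 on TiB2 and 22.1, 20.2 and 19.7 on HA. It fell in each coated group below every bare alloy library (-0.69 ± 0.15, edgeR adjusted p = 0.0242; -0.45 ± 0.08, 0.00341), and on HA the call was lost without HA replicate 2 (0.0552) or any 1 bare alloy library (0.0980 to 0.140).

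Of 11 genes of the retinoblastoma and E2F network 1 rose on HA, E2F6 (0.62), a repressor, which was lost in 5 of 6 fits with 1 library left out (edgeR adjusted p of 0.0569 to 0.225), and 1 on TiB2, E2F8, named here because it was the sole call. That is near the 5.02% and 12.9% of all genes called higher on these surfaces. Of the G1 cyclins, kinases and inhibitors, none of 11 tested rose on HA and none of 8 tested on TiB2, and 2 fell on each. Of all genes, 4.88% were called lower on HA and 12.2% on TiB2. At an unadjusted p under 0.05 edgeR also gave 0 higher and 2 lower on both, against 13.1% and 18.2% of all genes lower. The 2 that fell, CDKN2C and CDKN1B, are inhibitors of cyclin-dependent kinases. The other inhibitors listed, CDKN1A, CDKN1C, CDKN2A, CDKN2B and CDKN2D, were not called on HA, nor on TiB2 where tested. For CDKN2A and CDKN2B this does not show unchanged levels, as both were low and parted the libraries as DUT did. CDKN2A held 68, 4 and 7 counts on bare alloy, 17, 4 and 9 on TiB2 and 83, 56 and 64 on HA. CDKN2B held 35, 0 and 0, then 9, 0 and 0, then 60, 27 and 46. The cyclin gene CCND2, also low, parted them the same way. CDKN2C, p18, lay at 59.6, 65.0 and 65.8 CPM on bare alloy, 31.2, 24.5 and 24.2 on TiB2 and 29.1, 27.8 and 38.8 on HA. CDKN1B, p27, lay at 66.2, 65.7 and 59.7 CPM on bare alloy, 44.6, 48.2 and 47.5 on TiB2 and 39.1, 39.2 and 49.9 on HA. Every coated library was below every bare alloy library for both. CDKN2C fell by 1.00 ± 0.17 on HA (edgeR adjusted p = 0.00865; 0.0572 and 0.0553 without bare alloy replicate 2 or 3) and by 1.25 ± 0.11 on TiB2 (5.72e-05). CDKN1B fell by 0.59 ± 0.16 on HA (0.0478; 0.107 to 0.194 in the 4 fits that lost it) and by 0.45 ± 0.08 on TiB2 (0.00265).

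Of 7 further genes of fork chromatin 5 rose on HA and 6 on TiB2: ASF1B, a histone chaperone, by 1.10 and 0.90, DTL, which marks CDT1 for destruction, by 0.99 and 0.74, and HELLS, a chromatin remodeller, by 0.99 and 0.93. Each of these HA calls was lost in 2 of 6 fits with 1 library left out: ASF1B and HELLS without bare alloy replicate 1 or 2 (edgeR adjusted p of 0.0508 to 0.0655) and DTL without replicate 2 or 3 (0.0517 and 0.0511). Genes of mitosis moved in the same direction as the replication genes. Of 16, 12 rose on HA (median 1.20) and 16 on TiB2 (0.91), and none fell. TTK, a spindle checkpoint kinase, rose by 1.60 and 1.17, CCNB1, cyclin B1, by 1.50 and 0.97, and CDK1, its kinase, by 1.43 and 0.73, with edgeR adjusted p = 0.0586 on TiB2 without bare alloy replicate 3.

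**Figure D5:**
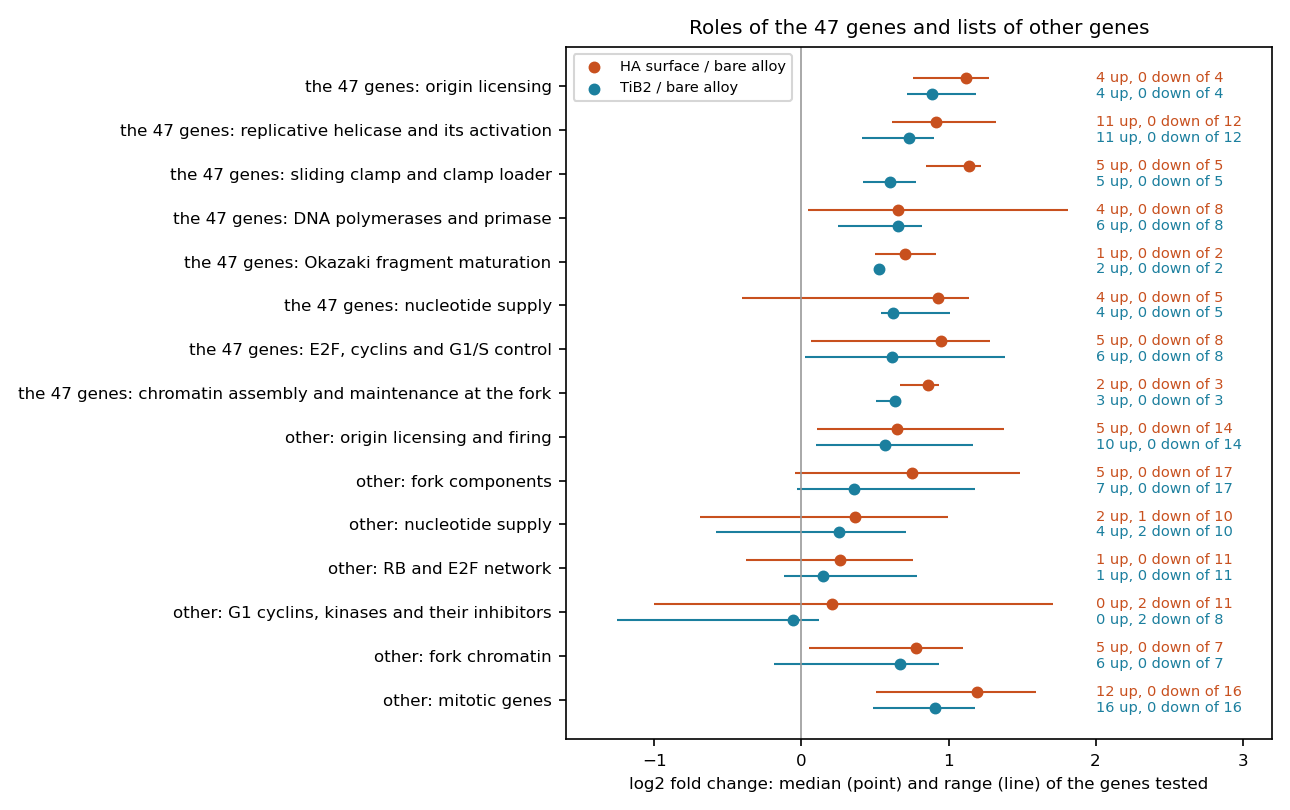
Median (point) and range (line) of log2 fold changes against bare alloy in the 8 roles of the 47 genes and in 7 lists of other genes, for HA and TiB2, with counts past the adjusted threshold at the right. Medians of the replication roles lie between 0.52 and 1.14, mitotic genes at 1.20 and 0.91, and the G1 cyclins, kinases and inhibitors near 0 with 2 genes that fell.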

How the data were processed

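RNA of 9 MG-63 libraries was measured. The authors deposited 1 table holding, for each gene, the raw count and the FPKM of each library. The tools named, per the submitters' processing notes and with no role given, are featureCounts 2.0.1, StringTie 2.1.4, HISAT2 2.2.1, cutadapt 2.10 and limma, and the build is GRCh38. FPKM values as deposited served for levels between genes and for limma. Strand use is not given in the sources used here, and 26 of the 47 genes overlap another row, among them RFC4 (EIF4A2), FEN1 (FADS2), CHAF1B (MORC3) and CCND1 (LTO1), so their counts could hold reads of a neighbour.

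Counts were tested with edgeR 4.0.16 in R 4.3.3 (filterByExpr, TMM, quasi-likelihood test, two-sided), using each comparison's own 6 libraries and Benjamini-Hochberg adjustment over all genes tested, with a threshold of 0.05. SE is the log2 fold change divided by the square root of F. CPM were scaled by TMM over all 9 libraries. Alternatives used DESeq2 1.42.0 and limma 3.58.1 (fold changes on the log2(FPKM + 1) scale, which understates low genes), other filters and scalings, a GC and length offset and fits without 1 library. GC content and length came from GENCODE transcripts. The edgeR step was tested on simulated data with 200 changed genes drawn from all genes tested, at any level. It found 17% of the 2-fold changes set for HA against bare alloy and 65% of the 4-fold ones (20117 genes). For TiB2 these were 55% and 71% (20152 genes). Named in full in each role were the members with the largest and smallest change on HA and any against its role's sign, and from each other list at most 3 passing genes with the largest change. The 47 genes, the lists and this rule were chosen with earlier results of these data known. The markers listed are COL1A1, COL1A2, COL3A1, VIM, THY1, RUNX2 and SPARC (mesenchymal), EPCAM, CDH1, KRT8, KRT18 and KRT19 (epithelial), PECAM1, CDH5, VWF and KDR (endothelial) and CD3D, CD3E, CD3G, CD2, LCK and TRAC (T cell).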

Additional observations from a re-analysis of the deposited data

How the results depend on the processing

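Against bare alloy, the signs that turned among the 47 genes and the other genes named were those of POLE, CCND1 and DUT, none of which had passed. For HA against bare alloy, POLE stood at -0.0083 with limma on log2(FPKM + 1), -0.027 on log2(FPKM + 0.1), -0.0078 after dropping genes under a mean FPKM of 1, -0.049 with the replicate block and -0.32 to 0.32 with 1 library left out (lowest without HA replicate 1), and CCND1 at -0.15 to 0.17 (lowest without HA replicate 1). For TiB2 against bare alloy CCND1 stood at -0.011 after dropping genes under a mean FPKM of 1, -0.011 without TiB2 replicate 1 and -0.0040 without TiB2 replicate 2, up to 0.078 without TiB2 replicate 3. A fit with the library's side as a term, added after the data were seen, gave DUT 1.17 on HA against bare alloy and 0.97 against TiB2.

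The count of members higher on HA than on bare alloy was 8 to 37 with 1 library left out, 18 with the side as a term and 31 to 43 in the other alternatives, with none lower; the median was 0.76 with limma on log2(FPKM + 1). On TiB2 the count was 33 to 41 with 1 library left out, 11 with the side as a term and 29 to 44 otherwise, with none lower. Between HA and TiB2, the count higher was 2 with DESeq2, 1 in the fit of all 9 libraries and 0 to 2 with 1 library left out. The count lower was 0 with no low-count filter, in the fit of all 9 libraries and with the side as a term, and 0 to 1 with 1 library left out. The median there was 0.39 with the side as a term. Signs between HA and TiB2 were not stable: 36 members were positive as reported, 44 with the GC and length offset, 32 without TiB2 replicate 3 and 41 without TiB2 replicate 1.

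Replicate numbers did not pair libraries: libraries with the same number correlated at -0.067 to 0.043 in their deviations from the group means, and not every one correlated best with its own number. With the replicate number as a block the counts higher were 33 on HA, 34 on TiB2 and 0 between them, with 1 lower between them. Where a marker is at 0, the limit is 3 counts in a library (0.0414 to 0.0513 CPM), for counting error only.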
